A study of Mus musculus with 5 samples.

Results

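Interferon-stimulated genes are the genes that cells switch on when interferon binds its receptors, and 36 of them were followed in bulk RNA-seq of mouse prostate tumor tissue. The members were the rows of the count table whose gene symbol is on a list of type I and type II interferon response genes, and 36 of 36 listed symbols were found among 24527 genes. All 36 passed the filter on low counts that left 14612 genes for testing. The tissue came from 3 castrated and 2 intact mice, each sample from a different animal, all 8 months old, with castration done at 4 months of age in the castrated group. Both groups carried PB Cre4, Ctnnb1 L(Ex3)/+, H11 hMET/+ and hHGFtg, a combination called TripleTg, so the groups differ by label in castration alone. These mice make human HGF throughout the body. A Cre recombinase under the probasin promoter, which is active in prostate epithelium, turns on the transgene for the human MET receptor and removes exon 3 of β-catenin in those cells, which stabilizes it. The lines were kept on mixed C57BL/6 and C3H SCID backgrounds, and the transgenes drive tumors, so the intact samples are tumor tissue and not normal prostate. Castration removes testicular androgen, and the comparison asks how the tumors that grow without it differ in RNA from those in intact mice.

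Type I interferons signal through IFNAR1 and IFNAR2 and the kinases JAK1 and TYK2 to a complex that holds STAT2 and IRF9 and binds a DNA element called the interferon-stimulated response element (ISRE). Interferon-γ signals through IFNGR1 and IFNGR2, JAK1 and JAK2 to a factor that binds the gamma-activated site (GAS). The induced genes encode sensors of foreign nucleic acid, transcription factors that extend the response, enzymes and membrane proteins that block viral growth, and regulators that end the signal. In tumors the same genes are followed as a sign of interferon made by immune cells, or of nucleic acid sensed inside the tumor cells themselves.

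Promoters of part of the members hold the letters of the ISRE. RefSeq promoter windows of build GRCm38.p6, from 250 bases before to 50 bases after the transcription start, were available for 27 of the 36 members. The core letters searched for the ISRE were GAAANNGAAA and for the GAS TTCNNNGAA, on both strands, where N is any base. The letters of the motifs are alike in part, so that matches of both can overlap. At least 1 ISRE match was present in 15 of 27 members (55.6%), against 1079 of 27025 genes with a promoter window (3.99%). At least 2 matches were present in 6 members, against 72 of all genes (0.266%). A GAS match was present in 7 members (25.9%) and in 9.55% of all genes. A match is a run of letters and not a measured binding site, and no match says only that these letters are not in the window. The sequences below are the 6 members with at least 2 ISRE matches, shown because they hold the element most often, followed by Rsad2 and Gbp2, whose values are used later. They are written 5′ to 3′ on the strand of the gene, with the matches in capitals.
Isg15: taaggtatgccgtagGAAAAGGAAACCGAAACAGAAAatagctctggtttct
Ifit1: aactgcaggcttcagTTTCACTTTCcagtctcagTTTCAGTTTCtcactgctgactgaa
Ifit3: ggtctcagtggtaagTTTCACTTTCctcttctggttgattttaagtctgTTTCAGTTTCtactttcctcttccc
Oas1a: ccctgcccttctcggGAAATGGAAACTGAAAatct
Bst2: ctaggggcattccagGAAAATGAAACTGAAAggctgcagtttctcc
Gbp3: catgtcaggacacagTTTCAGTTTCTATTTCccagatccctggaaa
Rsad2: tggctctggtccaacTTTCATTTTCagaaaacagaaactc
Gbp2: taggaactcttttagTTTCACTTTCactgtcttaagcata
The Isg15 window lies at chr4:156200860-156200911 on the minus strand and holds 3 overlapping matches, 57 to 78 bases before the start. Those of Ifit1 (chr19:34640770-34640828) and Ifit3 (chr19:34583358-34583431) are on the plus strand, and each holds 2 separate matches. In Oas1a (chr5:120907526-120907560, minus strand), Bst2 (chr8:71537572-71537617, minus strand) and Gbp3 (chr3:142559984-142560029, plus strand) the 2 matches overlap. Rsad2 (chr12:26456548-26456587, minus strand) and Gbp2 (chr3:142620589-142620628, plus strand) hold 1 match each.

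Depth was similar across the samples. The castrated libraries held 28015507, 18951782 and 20492061 counts and the intact libraries 21560355 and 22853501. Values below are in CPM, counts scaled to a common library size after TMM normalization, unless TPM is named, which also divides by gene length. The members together took 0.149%, 0.105% and 0.131% of the counts in the castrated samples and 0.140% and 0.106% in the intact samples. A count of 3, the limit that a count of 0 allows, corresponds to 0.105 to 0.161 CPM, so every member lay well above the floor in every sample. The floor covers counting error only. The common dispersion between mice was 0.238, and variation between animals, not depth, set the precision of the members.

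The intact samples stood apart from each other before any member was considered. Epithelial genes Krt8 and Epcam were abundant in every sample, with Krt8 at 875, 777 and 1144 CPM in castrated and 1155 and 661 CPM in intact samples. Epcam was at 736, 729 and 637 CPM in castrated and 1325 and 511 CPM in intact samples. Of 11 tested epithelial markers, intact 1 was highest for 4 (Epcam, Cdh1, Krt8, Krt18) and intact 2 for 6. Other epithelial genes thus differed between the intact samples in the opposite direction. Krt5, a keratin of basal cells, was at 28.9 CPM in intact 1 and 405 CPM in intact 2, against 128, 90.5 and 290 CPM in castrated replicates 1 to 3. Probasin (Pbsn), an androgen-induced secretory gene, had no count in intact 1 and in castrated 2 and reached 5.21 CPM in intact 2. Both genes were highest in intact 2, and no sample was lower than intact 1.

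No interferon-stimulated gene was called different between castrated and intact samples. edgeR's quasi-likelihood F-test, Benjamini-Hochberg adjusted over all genes, called 0 of the 36 members, and it called 0% of all genes, so the comparison had no called gene at all. DESeq2 called 989 genes and the likelihood ratio test of edgeR 369, with 0 members among them by either, and limma voom called 0. The smallest adjusted p of any gene was 0.320 and the smallest among the members was 0.361, for Gbp7. At an unadjusted p under 0.05, whatever the fold, 0 members were higher and 0 were lower in castrated samples, where 8.29% and 5.93% of all genes were. With an absolute log2 fold change above 1 as well, the background shares were 7.34% higher and 3.13% lower, and again 0 members were among them. The members split almost evenly, with 17 of 36 having a positive and 19 a negative log2 fold change. Their median log2 fold change, castrated minus intact, was -0.033, against -0.027 over all genes tested, and the range ran from -1.25 for Mx2 to 0.73 for Gbp7. The median absolute log2 fold change was 0.34 for the members and 0.40 for all genes, with median standard errors of 0.41 and 0.38. Castrated samples all lay above both intact samples for 3 members (Irf1, Trim30a, Gbp7), where 17% of all genes did so. They all lay below both intact samples for 4 members (Eif2ak2, Stat2, Mx2, Herc6), where the share of all genes was 16.1%. The groups overlapped for the other 29.

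**Figure D1:**
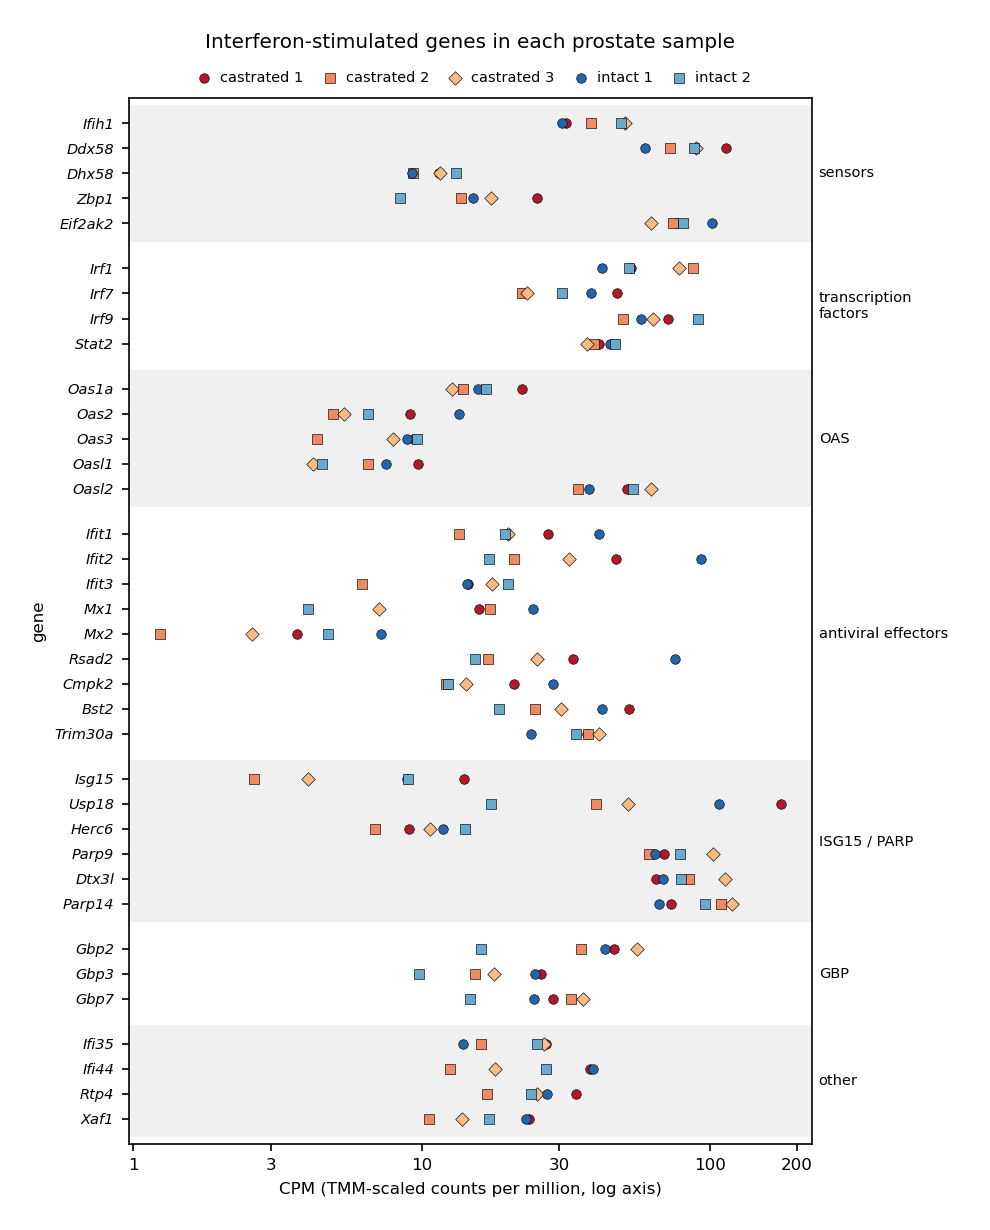
CPM of the 36 interferon-stimulated genes (rows, grouped by role) in each sample on a log axis, with 1 point per sample. The red castrated and blue intact points overlap for 29 genes, and the points of a gene spread from 1.25-fold (Stat2) to 10.1-fold (Usp18) between the lowest and the highest sample.

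**Figure D2:**
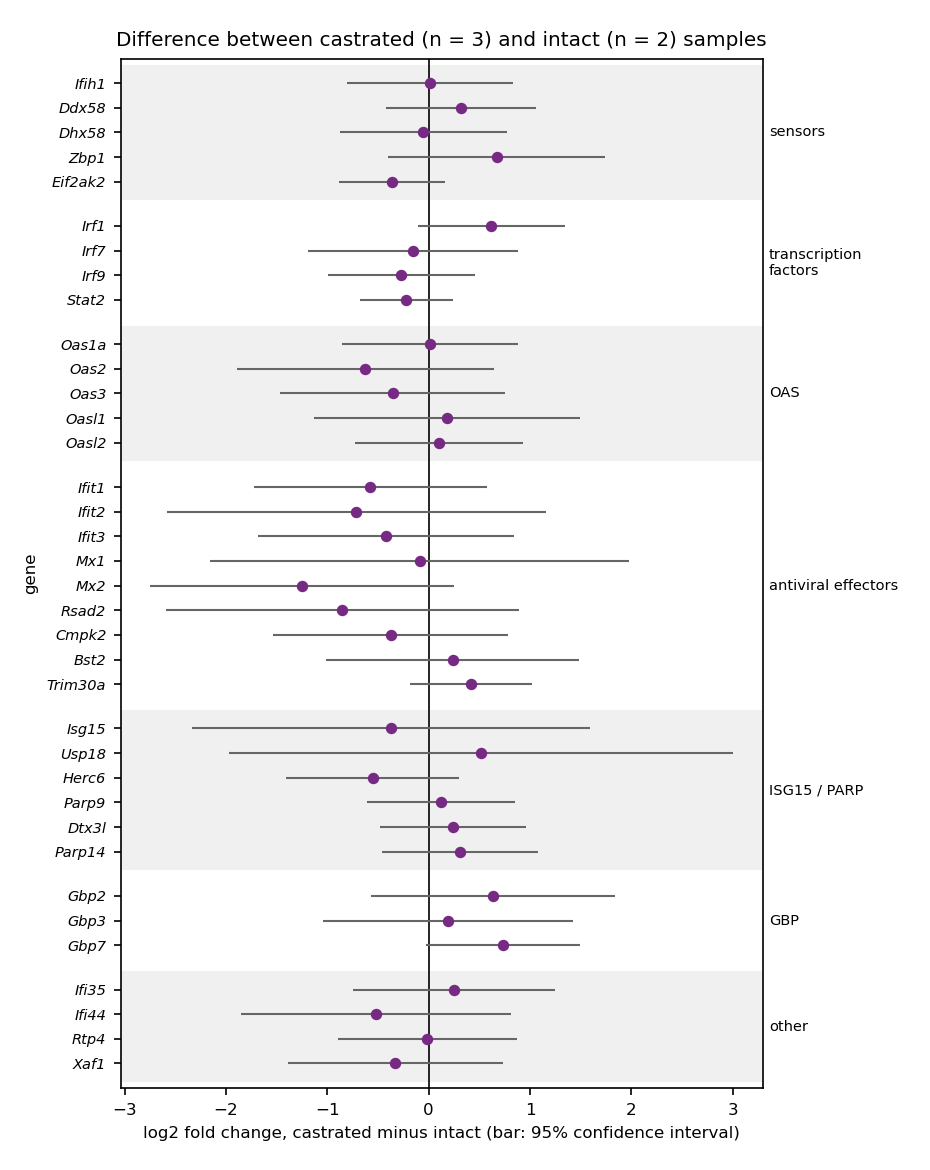
Log2 fold change of each member, castrated (n = 3) minus intact (n = 2), as a point with its 95% confidence interval from edgeR's quasi-likelihood fit. Every interval crosses 0, and the widest are those of Usp18, Mx1 and Isg15.

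The sensors of viral nucleic acid are the helicases Ifih1 (MDA5), Ddx58 (RIG-I) and Dhx58 (LGP2), the Z-nucleic acid binding protein Zbp1 and the RNA-activated kinase Eif2ak2 (PKR). Their log2 fold changes ran from -0.36 to 0.67. Eif2ak2, the sensor with the highest level per length (mean 41.7 TPM), was at 76.0, 74.2 and 62.3 CPM in castrated and 102 and 80.6 CPM in intact samples. The castrated samples all lay below the intact ones. The log2 fold change was -0.36 (SE 0.21), with an adjusted p of 0.466 over all genes tested by edgeR. Zbp1, which triggers necroptosis on sensing Z-form nucleic acid, was at 25.1, 13.7 and 17.4 CPM in castrated and 15.1 and 8.41 CPM in intact samples. The groups overlapped, with intact 2 lowest. For Zbp1 the log2 fold change was 0.67 (SE 0.42, adjusted p = 0.508). Ifih1 and Ddx58 were lowest in intact 1, at 30.6 and 59.2 CPM, and Dhx58 was also lowest there, at 9.23 CPM. For these 3 helicases intact 1 lay below intact 2, at a ratio of 0.63 for Ifih1, 0.68 for Ddx58 and 0.70 for Dhx58.

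The 4 transcription factors were Irf1, Irf7, Irf9 and Stat2. Irf1, a primary target of interferon-γ signaling, was at 53.0, 87.0 and 77.9 CPM in castrated and 42.1 and 52.5 CPM in intact samples. Castrated 1 lay just above intact 2, so the groups touched without overlapping. For Irf1 the log2 fold change was 0.62 (SE 0.29) with an adjusted p of 0.389. Stat2, a subunit of the type I complex, was the steadiest member, at 41.3, 39.7 and 37.4 CPM in castrated and 45.0 and 46.9 CPM in intact samples. Its castrated samples lay below both intact samples by a small margin, with a log2 fold change of -0.22 (SE 0.18, adjusted p = 0.612) and a 95% confidence interval of -0.68 to 0.24. Irf9, the DNA-binding subunit of the type I complex and the most abundant of the 4 per length (mean 55.5 TPM), was at 71.3, 50.0 and 63.2 CPM in castrated and 57.5 and 90.9 CPM in intact samples. Its groups overlapped, and the log2 fold change was -0.27 (SE 0.29, adjusted p = 0.695). Irf7, the factor that amplifies interferon-α production, had its highest value in castrated 1, 2.09 times the mean of the other castrated samples. Its log2 fold change was -0.16.

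Oligoadenylate synthetases make a short RNA messenger that activates RNase L, and Oasl1 and Oasl2 are relatives. The log2 fold changes of the 5 genes ran from -0.63 to 0.18, and all groups overlapped. Oas2 was at 9.07, 4.93 and 5.36 CPM in castrated and 13.4 and 6.51 CPM in intact samples. Intact 1 was highest and castrated 1 next, above the other intact sample. The log2 fold change was -0.63 (SE 0.50, adjusted p = 0.599). Oas3 was at 9.42, 4.34 and 7.94 CPM in castrated and 8.92 and 9.62 CPM in intact samples, with a log2 fold change of -0.36 (SE 0.44, adjusted p = 0.740). For this gene castrated 2 alone was low. Oasl2, the family member with the highest level per length (mean 34.6 TPM), was at 51.4, 34.8 and 62.4 CPM in castrated and 38.1 and 54.1 CPM in intact samples, with a log2 fold change of 0.10 (SE 0.33, adjusted p = 0.910). Oas1a and Oasl1 were both highest in castrated 1 and lowest in castrated 3. Oas1a has close copies in the mouse, so its reads may be shared with them.

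The direct antiviral effectors were 3 IFIT proteins, which bind viral RNA, the dynamin-like GTPases Mx1 and Mx2, viperin (Rsad2) and its neighbor Cmpk2, which both act on nucleotides, tetherin (Bst2), which holds virus at the cell surface, and Trim30a. Of these 9 genes 7 had a negative log2 fold change, and the median was -0.43. Mx2, the member with the lowest level per length (mean 3.67 TPM), was at 3.70, 1.23 and 2.58 CPM in castrated and 7.21 and 4.74 CPM in intact samples. The castrated samples all lay below the intact ones. In the fit the log2 fold change was -1.25 (SE 0.59, adjusted p = 0.398), with a 95% confidence interval of -2.75 to 0.25. Trim30a was at 37.3, 37.8 and 41.1 CPM in castrated and 23.9 and 34.1 CPM in intact samples, all castrated samples above both intact ones, with a log2 fold change of 0.42 (SE 0.24, adjusted p = 0.466). Bst2, the effector with the highest level per length (mean 97.4 TPM), was at 52.2, 24.8 and 30.4 CPM in castrated and 42.3 and 18.5 CPM in intact samples. Castrated 1 and intact 1 were the high samples of their groups, and the log2 fold change was 0.24 (SE 0.50, adjusted p = 0.855).

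Much of the spread in this group was between the 2 intact mice. Ifit2 was at 92.8 CPM in intact 1 and 17.2 CPM in intact 2, with the castrated samples at 47.2, 20.9 and 32.4 CPM between them. Rsad2 was at 75.8 and 15.3 CPM in the intact samples and at 33.5, 17.0 and 25.1 CPM in the castrated samples. Mx1, of which many laboratory strains carry a defective allele, was at 24.4 and 4.04 CPM in the intact samples and 15.8, 17.2 and 7.11 CPM in the castrated samples. For all 3 genes intact 1 was the highest and intact 2 the lowest of the 5 samples. Intact 1 exceeded intact 2 by 5.41 times for Ifit2, 4.94 times for Rsad2 and 6.03 times for Mx1. The direction of the group difference therefore depended on which intact mouse was used. The log2 fold change of Ifit2 was -1.51 without intact 2 and 0.99 without intact 1, that of Rsad2 was -1.63 and 0.74, and that of Mx1 was -0.91 and 1.75. Ifit1, Bst2 and Cmpk2 also exceeded 2-fold between the intact samples, at 2.12, 2.28 and 2.31 times, which made 6 of the 9 genes of this group. Of the other 3, Mx2 was 1.52 times as high in intact 1 as in intact 2, while Ifit3 and Trim30a were lower in intact 1, at 0.722 and 0.701 times. Ifit1 and Ifit3 have close paralogs, and reads may be split among them.

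The genes of ISG15 conjugation and ADP-ribosylation were Isg15, a ubiquitin-like protein joined to other proteins, Usp18, the protease that removes it and dampens IFNAR signaling, Herc6, the mouse ligase of this system, the partners Parp9 and Dtx3l, and Parp14. Usp18 had the highest level per length of the 36 members (mean 105 TPM) and the widest spread. It was at 176, 40.3 and 52.0 CPM in castrated and 108 and 17.3 CPM in intact samples. Castrated 1 and intact 1 were high and the other samples low, and the groups overlapped. For Usp18 the log2 fold change was 0.52 (SE 0.98, adjusted p = 0.838), with a 95% confidence interval of -1.97 to 3.01, and it was -0.44 without castrated 1 and 2.39 without intact 1. Isg15 was at 14.0, 2.63 and 4.04 CPM in castrated and 8.92 and 8.92 CPM in intact samples. Here castrated 1 was highest, 4.19 times the mean of the other castrated samples, and the intact samples were at the same level. With all samples its log2 fold change was -0.37, and it was -1.42 without castrated 1.

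Herc6 was at 9.04, 6.86 and 10.7 CPM in castrated and 11.9 and 14.1 CPM in intact samples. All castrated samples lay below the intact ones, with a log2 fold change of -0.55 (SE 0.34, adjusted p = 0.490). Parp14 was at 73.0, 109 and 119 CPM in castrated and 66.3 and 96.0 CPM in intact samples, with a log2 fold change of 0.31 (SE 0.30, adjusted p = 0.676). Parp14 and Dtx3l went against Usp18, since castrated 1 was at 0.64 and 0.66 times the mean of the other castrated samples. The partners Parp9 and Dtx3l lie head to head on chromosome 16 and overlap by 558 bases on opposite strands. Whether reads were counted by strand is not given in the sources used here, so reads in that stretch cannot be assigned with certainty.

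The guanylate-binding proteins, GTPases that coat vacuoles with parasites or bacteria, were the group with the highest median log2 fold change, 0.63 over 3 genes that lie in one cluster on chromosome 3. Gbp7 was at 28.6, 33.0 and 36.2 CPM in castrated and 24.4 and 14.7 CPM in intact samples. All castrated samples lay above both intact samples. The log2 fold change was 0.73 (SE 0.30, unadjusted p = 0.0565, adjusted p = 0.361), with a 95% confidence interval of -0.029 to 1.497. Gbp2, the most abundant of them per length (mean 37.6 TPM), was at 46.4, 35.7 and 55.8 CPM in castrated and 43.2 and 16.0 CPM in intact samples, with a log2 fold change of 0.63 (SE 0.48, adjusted p = 0.576). Intact 2 was the lowest sample for Gbp2, Gbp3 and Gbp7, and intact 1 exceeded it by 2.69, 2.54 and 1.66 times. Without intact 2 the log2 fold changes of Gbp2, Gbp3 and Gbp7 were 0.047, -0.37 and 0.37. Without intact 1 they were 1.54, 1.04 and 1.16.

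Of the other interferon-induced genes, Ifi44 was at 38.4, 12.5 and 17.9 CPM in castrated and 39.1 and 26.9 CPM in intact samples. Castrated 1 and intact 1 were the high samples. For Ifi44 the log2 fold change was -0.52 (SE 0.53, adjusted p = 0.681), and it was -1.12 without castrated 1. Xaf1, a proapoptotic binding partner of XIAP, was at 23.6, 10.6 and 13.7 CPM in castrated and 23.0 and 17.1 CPM in intact samples, with a log2 fold change of -0.33 (SE 0.42, adjusted p = 0.748). Rtp4, the most abundant of these 4 genes per length (mean 36.9 TPM), was at 34.1, 16.8 and 25.0 CPM in castrated and 27.2 and 23.9 CPM in intact samples. Rtp4 had a log2 fold change of -0.014 (SE 0.35, adjusted p = 0.988). Ifi35 was highest in castrated 1 and lowest in intact 1.

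Many members differed between mice of the same group. Intact 1 exceeded intact 2 more than 2-fold for 10 members (27.8%), against 15.9% of all genes. The reverse held for 0 members, against 15.6% of all genes. Castrated 1 lay above the mean of castrated 2 and 3 for 29 members (80.6%), where 50% of all genes did. Castrated 2 was the lowest of the 5 samples for 15 members (41.7%), against 16.2% of all genes. Both differences were above 0 for 18 members (50%) and for 26.3% of all genes. Across the 36 members, which share the same 5 libraries and are not independent, Pearson's r between these 2 within-group differences was 0.51, against 0.18 over all genes.

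**Figure D3:**
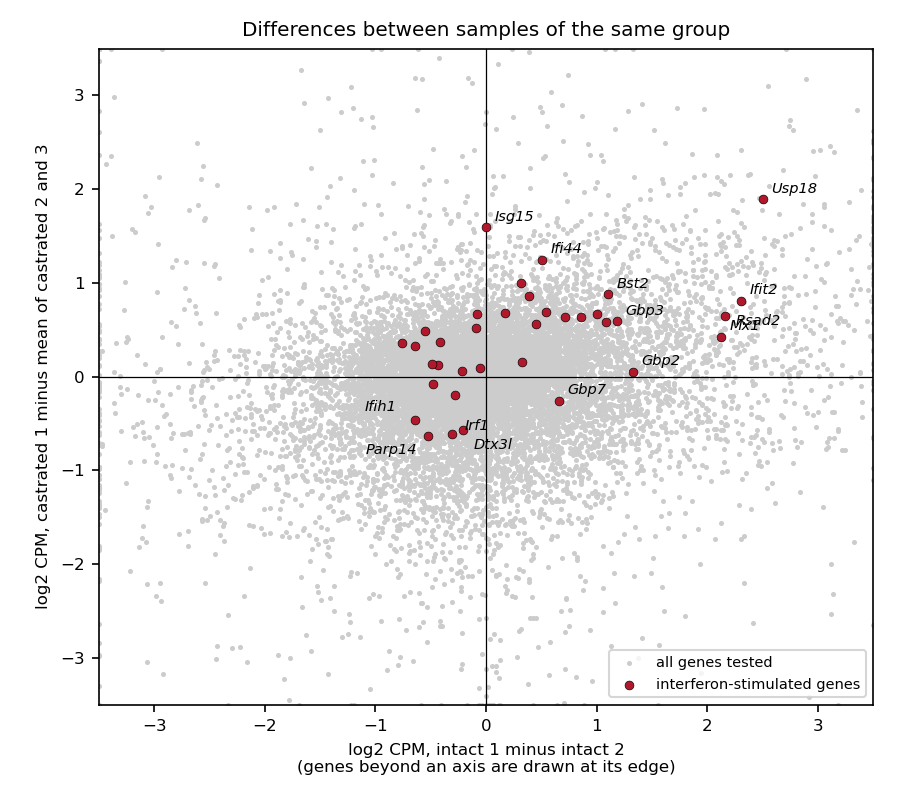
Log2 CPM of intact 1 minus intact 2 (x axis) against castrated 1 minus the mean of castrated 2 and 3 (y axis) for the 36 members (red) and the genes tested (grey). Usp18, Ifit2, Rsad2 and Mx1 lie far to the right, Isg15 is high on the y axis alone, and Irf1, Parp14, Dtx3l and Ifih1 lie below 0 on both axes.

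Sorted by the sample where each was highest, the members fell into sets that crossed the role groups. Castrated 1 was highest for 12 members (Ddx58, Zbp1, Irf7, Oas1a, Oasl1, Bst2, Isg15, Usp18, Gbp3, Ifi35, Rtp4, Xaf1), where it was highest for 15.2% of all genes. Intact 1 was highest for 9 members (Eif2ak2, Oas2, Ifit1, Ifit2, Mx1, Mx2, Rsad2, Cmpk2, Ifi44), against 20.8% of all genes. Castrated 3 was highest for 8 members (Ifih1, Oasl2, Trim30a, Parp9, Dtx3l, Parp14, Gbp2, Gbp7), against 17.2%. Intact 2 was highest for 6 members (Dhx58, Irf9, Stat2, Oas3, Ifit3, Herc6), where it led 31.3% of all genes, and castrated 2 for Irf1 only, against 15.5%. Averaged over the members on the log2 scale and set against the mean of the intact samples, the level was 0.25, -0.31 and -0.021 for the castrated mice, in order of replicate number, and 0.19 and -0.19 for the intact mice. The group means differed by -0.027, less than the SD of 0.28 among castrated and 0.27 among intact samples.

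The spread of the members was wide in a few of them and ordinary in most. The highest sample exceeded the lowest by a median of 2.22 times over the members and of 2.21 times over 14457 tested genes with counts in every sample. A ratio above 4 was found in 6 members (16.7%) and in 27.3% of those genes. The 6 were Usp18 (10.1 times), Mx1 (6.03), Mx2 (5.85), Ifit2 (5.41), Isg15 (5.32) and Rsad2 (4.94). At the other end were Stat2 (1.25 times) and Dhx58 (1.42).

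The wider pathway was followed with 88 listed genes, of which 85 were in the count table and 63 were tested. At an unadjusted p under 0.05, whatever the fold, 9 of the 63 were higher in castrated samples, against 8.29% of all genes, and 1 was lower, against 5.93%, and 0 passed after adjustment (smallest adjusted p 0.320 by edgeR). The median log2 fold change of the 63 was 0.25, against -0.027 over all genes, and 42 were positive, against 6992 of the 14612 genes tested. None of the values below therefore stands as a called difference.

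Interferon transcripts themselves were almost undetected. The 21 ligand genes, which include Ifnb1, Ifng, the Ifna genes and the lambda interferons, had 8, 8 and 3 counts in total in the castrated libraries and 8 and 8 in the intact ones. A total of 12 ligand genes had 0 counts in all libraries, and 0 passed the filter. At this depth no difference in ligand RNA between the groups could be detected.

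The receptors and kinases were expressed in every sample. Ifnar2, the type I receptor chain that binds STAT2, was at 47.7, 71.0 and 55.9 CPM in castrated and 32.8 and 29.3 CPM in intact samples. All castrated samples were above both intact samples, with a log2 fold change of 0.91 (SE 0.25, unadjusted p = 0.0136). Il10rb, shared by the interferon-λ and interleukin-10 receptors and the gene next to Ifnar2 on chromosome 16, had a log2 fold change of 0.80 (SE 0.29). Jak1, the kinase common to these receptors and the most abundant of its group per length, was at 274, 334 and 341 CPM in castrated and 132 and 193 CPM in intact samples, with a log2 fold change of 0.96 (SE 0.27, unadjusted p = 0.0145). Ifngr2, the most abundant receptor gene per length (mean 184 TPM), had a log2 fold change of -0.23 (SE 0.23).

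Among the genes that induce interferon, the endosomal RNA receptor Tlr7 and the factor Irf5 had the largest values. Tlr7 was at 20.8, 41.5 and 26.6 CPM in castrated and 13.3 and 8.04 CPM in intact samples, with a log2 fold change of 1.47 (SE 0.43, unadjusted p = 0.0171). Irf5 was at 26.7, 82.6 and 46.3 CPM in castrated and 13.1 and 20.8 CPM in intact samples, with a log2 fold change of 1.61 (SE 0.55, unadjusted p = 0.0311). Both were highest in castrated 2, the sample in which 15 of the 36 members were lowest. The kinase Tbk1, the most abundant gene of this group per length, had a log2 fold change of -0.11 (SE 0.24). Irf2 (0.44, SE 0.30) and Socs3 (0.59, SE 0.58), the most abundant of the remaining factors and of the negative regulators, had log2 fold changes that did not pass either.

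Of 20 other type I-induced genes, 3 were higher and 1 was lower at the unadjusted threshold, where 8.29% and 5.93% of all genes were. The log2 fold changes were 1.44 for Ifi27l2a (SE 0.40), 1.03 for Ifi203 (SE 0.40), 0.95 for Phf11d (SE 0.26) and -1.30 for Oas1b (SE 0.49), and the groups did not overlap for any of them. Ifitm3, a membrane protein that blocks viral entry and the most abundant gene of the whole pathway list per length, followed the pattern of Ifit2 instead. It was at 1190, 855 and 716 CPM in castrated and 1304 and 217 CPM in intact samples, 6.02 times higher in intact 1 than in intact 2, with a log2 fold change of 0.28 (SE 0.76).

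The interferon-γ-induced GTPases, which act with the guanylate-binding proteins on vacuoles, also differed between the intact mice. Intact 1 exceeded intact 2 more than 2-fold for 10 of 13 tested genes, against 15.9% of all genes. Castrated 1 exceeded the mean of the other castrated samples more than 2-fold for 5, against 981 of the 14612 genes tested. Irgm1, the most abundant per length (mean 65.3 TPM), was at 79.2, 58.9 and 66.6 CPM in castrated and 85.5 and 32.6 CPM in intact samples, with a log2 fold change of 0.21 (SE 0.44). Igtp was at 58.0, 17.9 and 23.5 CPM in castrated and 58.6 and 11.9 CPM in intact samples. Castrated 1 and intact 1 had nearly the same level of Igtp, far above the other 3. Gbp8 was the only one of these genes past the unadjusted threshold, with a log2 fold change of 1.35 (SE 0.49), from values of at most 3.92 CPM.

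**Figure D4:**
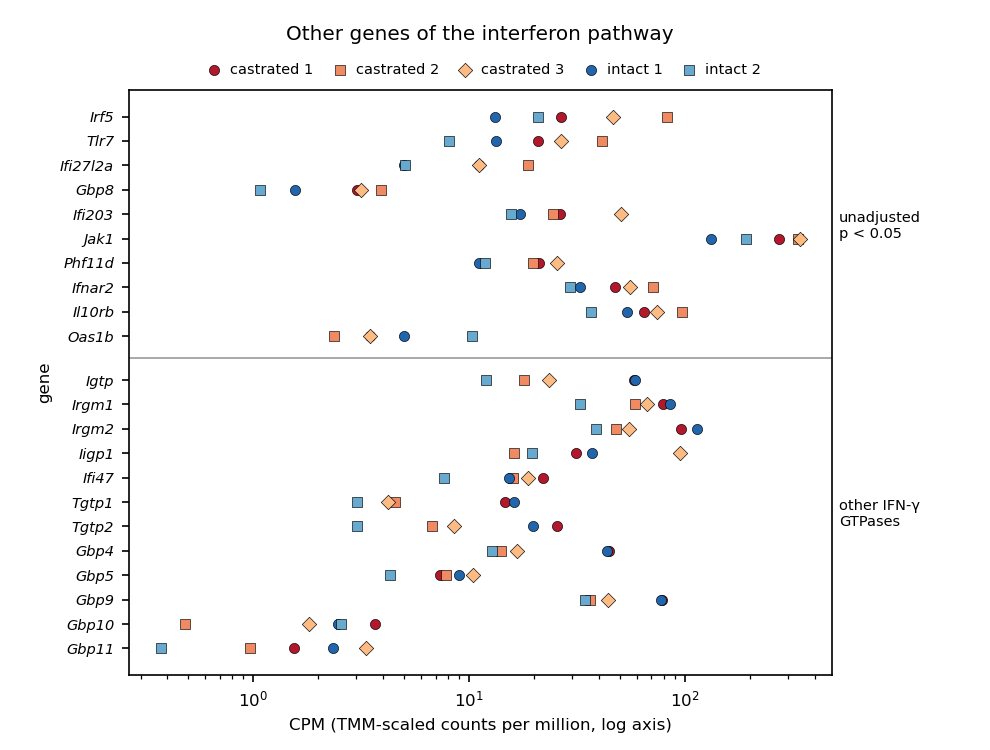
CPM per sample on a log axis for the 10 pathway genes past the unadjusted threshold (above the line, by log2 fold change) and the other tested interferon-γ-induced GTPases (below the line). The red castrated points lie to the right of the blue intact points for 9 of the upper genes and to the left for Oas1b, while intact 2 is the lowest or near the lowest sample for most GTPases.

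Several cell type markers moved with the groups or with single samples, and their part in the results above was not tested. In bulk tissue, fewer cells of a type and less RNA per cell cannot be told apart. Macrophage markers were higher in castrated samples at the unadjusted threshold for 9 of 12 genes, where 8.29% of all genes were, and their summed level was 1226, 3350 and 1723 CPM in castrated and 719 and 791 CPM in intact samples, with Tyrobp the most abundant per length. Castrated 2 was highest, as it was for Tlr7 and Irf5. Against the same 8.29%, B cell markers were higher for 5 of 6 genes, at a summed 10.5, 69.3 and 81.8 CPM in castrated and 1.12 and 4.14 CPM in intact samples. T cell markers passed for 0 of 10 tested genes, and their sums were 21.5, 70.1 and 70.8 CPM in castrated and 14.0 and 45.2 CPM in intact samples. Castrated 1 and intact 1, where Usp18 was highest, had the lowest T cell and B cell sums of their groups. NK cell markers passed for 0 of 4 tested genes, with sums between 6.87 CPM (castrated 1) and 39.5 CPM (castrated 3).

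Plasmacytoid dendritic cells are a main source of type I interferon. Their markers passed higher for 3 of 5 tested genes, against 8.29% of all genes. But the summed level of 123, 145 and 397 CPM in castrated and 30.1 and 247 CPM in intact samples was mostly Ly6d, which other cells also express. The 3 that passed were Spib, Ccr9 and Pacsin1. Spib was at 6.63, 14.0 and 16.0 CPM in castrated and 0.134 and 0.790 CPM in intact samples. The samples ranked for Spib in the same order as for the B cell sums, and which cells expressed it was not tested. Castrated 1 was the lowest castrated sample for Spib and Ccr9 and the highest for Pacsin1, and Siglech, a defining marker that did not pass, was under 1 CPM in castrated 1 and intact 1. Against the same 8.29% of all genes, conventional dendritic cell markers passed higher in castrated samples for 1 of 6 tested genes. Neutrophil markers passed higher for 1 of 7. Endothelial marker sums were 410, 294 and 340 CPM in castrated and 450 and 190 CPM in intact samples, with intact 1 and castrated 1 highest and intact 2 lowest. Of the 7 endothelial genes 2 were higher at the unadjusted threshold, against 8.29% of all genes. The most abundant, Cdh5, was at 76.1, 82.4 and 61.5 CPM in castrated and 227 and 41.4 CPM in intact samples. Cdh5 thus made up a large part of the intact 1 sum. Gene by gene, castrated 1 was the highest sample for 4 of the 7 and intact 1 for 2. Smooth muscle markers were higher for 6 of 6, adipocyte markers for 5 of 9 and fibroblast markers for 3 of 5 genes, where 8.29% of all genes were. Adipocyte marker sums were 61.9, 570 and 504 CPM in castrated and 51.8 and 98.8 CPM in intact samples, so castrated 1 lay with the intact samples. Of 11 tested epithelial markers 0 were higher.

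**Figure D5:**
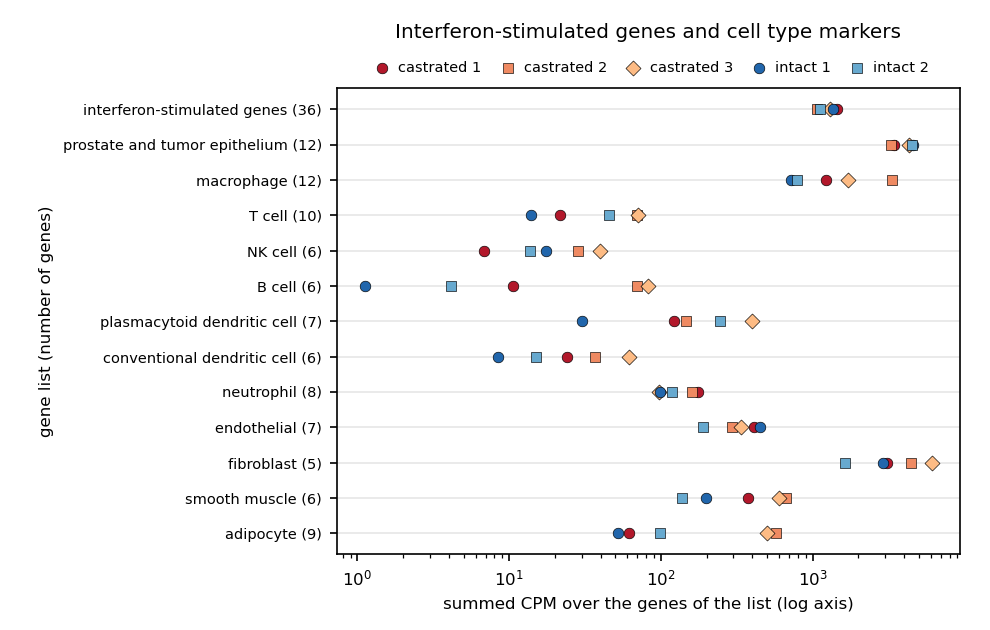
Summed CPM on a log axis of the 36 interferon-stimulated genes (top row) and of each list of cell type markers, 1 point per sample, with the number of genes in parentheses. The member sums lie between 1067 and 1454 CPM, while the B cell sums range from 1.12 to 81.8 CPM and the adipocyte sums from 51.8 to 570 CPM.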

How the data were processed

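Bulk RNA-seq of 3 castrated and 2 intact TripleTg prostate samples was analyzed. The authors depleted ribosomal RNA, sequenced paired ends and deposited raw counts per gene on mm10, and the submitters' processing notes name Trimmomatic 0.39, STAR 2.7.9 and HTSeq 2.0.2. The gene length in kilobases deposited beside the counts was used only for TPM.

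Counts were analyzed in R 4.3.3 with edgeR 4.0.16. Filter, test and threshold followed the study's methods, except that the test was run on the counts, while the methods name TPM values as its input: a CPM above 1 in 2 samples or more, the quasi-likelihood F-test after TMM normalization, and calls at an absolute log2 fold change above 1 with p, adjusted by Benjamini-Hochberg, under 0.05. Log2 CPM used a prior count of 2. P-values measure the spread between these 5 mice. limma 3.58.1 and DESeq2 1.42.0 served as alternatives, beside the likelihood ratio test, other filters and scalings, a replicate block and the omission of each replicate.

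The members and lists were chosen with earlier results of these data known. All 36 members are named. Given in full are, in each role group, the 2 members with the smallest unadjusted p and the one with the highest mean TPM. Named from the pathway list, with values in every sample for some, are the genes with an unadjusted p under 0.05 and the most abundant gene of each group. Igtp, the other members with values in every sample and the markers named singly were chosen after their values were seen. Gene coordinates are those of mm10 and count from 1, and promoter sequences are from RefSeq. Samples of a group were checked for repeated libraries, and none was found (chi-square per gene of 116 or more). Some listed genes are not reported here by name, though they remain in the counts.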

Additional observations from a re-analysis of the deposited data

How the results depend on the processing

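The members gave 0 calls after adjustment in every alternative that was run. Over all genes the count of calls was 0 except for 989 with DESeq2, 369 with the likelihood ratio test and 1 without intact replicate 1. The range without each replicate was 0 to 1. Genes past the unadjusted threshold numbered 1530, 883 with the replicate block and 800 to 2495 without each replicate. Members past it numbered 0, and 0 to 2 without each replicate: Isg15 and Ifi44 lower without castrated replicate 1, Ifit2 and Rsad2 lower without intact replicate 2, and Gbp2 and Gbp7 higher without intact replicate 1. Below an absolute log2 fold change of 1, an unadjusted p under 0.05 was also reached by Irf1 without castrated replicate 1, Trim30a without intact replicate 2 and Gbp7 with DESeq2. The cause was not tested. The median of the members was -0.27 to 0.063 without each replicate. Members without overlap of the groups then numbered 7 to 19 of 36, against 37.7% to 72% of all genes, as fewer samples overlap less often. With all samples scaled by library size only, 6 members had no overlap, against 33.2% of all genes, since the groups of Eif2ak2 then overlapped.

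Same-numbered samples came from different mice, and the correlation of their deviations was 0.18 for replicate 1 and -0.027 for replicate 2, so the numbers were not treated as pairs. With the replicate block, the log2 fold change turned to -0.15 for Ifih1, 0.72 for Mx1, -0.10 for Oasl2 and -0.13 for Parp9, and Usp18 reached 0.96 (unadjusted p = 0.038). Mx1 was 0.33 with limma voom. Rtp4 was 0.013 scaled by library size only and 0.019 with a CPM above 1 in all 5 samples.

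Of 36 members 16 kept their sign in every alternative. Without 1 replicate, 20 changed sign in at least 1 fit, with log2 fold changes of -0.28 to 0.97 for Bst2, -0.90 to 0.37 for Cmpk2, -0.27 to 0.18 for Dhx58, -0.37 to 1.04 for Gbp3, -0.093 to 0.69 for Ifi35, -0.27 to 0.35 for Ifih1, -1.06 to 0.084 for Ifit1, -1.51 to 0.99 for Ifit2, -0.60 to 0.041 for Irf7 and -0.54 to 0.054 for Irf9. The others ran from -1.42 to 0.023 for Isg15, -0.91 to 1.75 for Mx1, -0.28 to 0.17 for Oas1a, -1.10 to 0.011 for Oas2, -0.18 to 0.62 for Oasl1, -0.11 to 0.34 for Oasl2, -0.13 to 0.27 for Parp9, -1.63 to 0.74 for Rsad2, -0.29 to 0.22 for Rtp4 and -0.44 to 2.39 for Usp18. The 16 that kept their sign ran from 0.085 to 0.59 for Ddx58, 0.021 to 0.41 for Dtx3l, -0.56 to -0.17 for Eif2ak2, 0.047 to 1.54 for Gbp2, 0.37 to 1.16 for Gbp7, -0.70 to -0.39 for Herc6, -1.12 to -0.20 for Ifi44, -0.72 to -0.087 for Ifit3, 0.48 to 0.80 for Irf1, -1.64 to -0.89 for Mx2, -0.59 to -0.086 for Oas3, 0.084 to 0.56 for Parp14, -0.25 to -0.17 for Stat2, 0.20 to 0.65 for Trim30a, -0.72 to -0.075 for Xaf1 and 0.27 to 1.18 for Zbp1. Where 1 intact sample was left, its spread was taken from the castrated samples. With 2 intact samples, 1 mouse decides many directions, and modest differences could not be detected.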
